A study of Mus musculus with 6 samples.

Results

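The 10 genes described here mark the inhibitory interneurons of the cerebellum or make, load and take up their transmitters: Gad1, Gad2, Slc32a1, Slc6a5, Slc6a11, Ptf1a, Pax2, Tfap2a, Tfap2b and Kit. All 10 were found among the 22180 genes of the deposited table. They were chosen by name, with earlier results of these data known, and each was read from the probe set of that symbol with the highest mean over the 6 arrays. Expression was measured in cerebellum of mice at postnatal day 7. The 3 wild-type samples carried Math1Cre with wild-type Crebbp, and the 3 knockout samples carried Math1Cre with both Crebbp alleles floxed (Math1Cre::CrebbpFl/Fl), so Cre was present in both groups. Crebbp encodes a lysine acetyltransferase that serves as a coactivator of CREB and of many other transcription factors.

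GABA is made from glutamate by the glutamate decarboxylases, packed into synaptic vesicles by a transporter that also carries glycine, and removed from the synapse by plasma membrane transporters of neurons and glia. Cerebellar GABAergic neurons arise from the Ptf1a-expressing ventricular zone, whereas Math1 (Atoh1) marks the rhombic lip, which gives rise to granule neurons. Basket, stellate and Golgi cells descend from Pax2-positive precursors that migrate through the white matter after birth. The members are therefore mostly genes of cells outside the lineage in which Math1-driven Cre acts. In whole tissue, fewer cells of a type and less RNA per cell cannot be told apart.

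The promoters below are shown because they belong to both GABA-synthesising enzymes, to the member with the largest difference between the groups (Slc6a11) and to the member with the smallest p-value (Tfap2b). Each is the 250 bases before the start site in RefSeq (build GRCm38.p6), written 5′ to 3′ on the strand of the gene, which is the plus strand in each. Capitals mark the short core of the CREB-binding element, TGACG or its complement CGTCA, and the AP-2 motif GCCNNNGGC, the type of site bound by the products of Tfap2a and Tfap2b.
Gad1 (chr2:70561879-70562128): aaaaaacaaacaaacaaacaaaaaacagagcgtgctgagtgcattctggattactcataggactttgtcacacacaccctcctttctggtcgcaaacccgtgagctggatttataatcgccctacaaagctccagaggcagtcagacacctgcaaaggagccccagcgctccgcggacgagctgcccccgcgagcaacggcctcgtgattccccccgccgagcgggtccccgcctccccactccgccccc
Gad2 (chr2:22622077-22622326): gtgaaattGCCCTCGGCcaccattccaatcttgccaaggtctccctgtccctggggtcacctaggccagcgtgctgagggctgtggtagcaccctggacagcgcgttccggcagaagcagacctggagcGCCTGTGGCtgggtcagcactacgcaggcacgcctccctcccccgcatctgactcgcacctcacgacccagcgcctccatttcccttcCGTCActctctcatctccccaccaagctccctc
Slc6a11 (chr6:114130991-114131240): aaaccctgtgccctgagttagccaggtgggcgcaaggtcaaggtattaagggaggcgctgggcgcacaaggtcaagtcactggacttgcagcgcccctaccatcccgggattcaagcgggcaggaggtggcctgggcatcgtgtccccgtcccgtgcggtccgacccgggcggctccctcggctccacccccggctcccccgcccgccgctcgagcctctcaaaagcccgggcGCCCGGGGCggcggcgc
Tfap2b (chr1:19211804-19212053): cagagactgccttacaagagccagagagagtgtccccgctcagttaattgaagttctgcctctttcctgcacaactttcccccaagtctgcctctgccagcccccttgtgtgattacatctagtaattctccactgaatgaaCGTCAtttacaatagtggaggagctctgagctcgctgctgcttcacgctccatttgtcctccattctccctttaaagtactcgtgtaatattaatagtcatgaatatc

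The table of promoters listed all 10 genes with 15 start sites, and both strands were searched. The full CREB element TGACGTCA was in 0 of the 15 windows, against 1.55% of all 32851 windows of this length. The short core was in 3 of 15 (Gad2, Tfap2b and 1 start site of Slc6a5) against 17.8% of all windows. It begins 33 bases before the start of Gad2 and 108 before that of Tfap2b. The AP-2 motif was in 5 of 15 windows, of the 4 genes Gad2, Kit, Pax2 and Slc6a11, against 13.7% of all windows. The 2 windows of Kit start 4 bases apart and hold 1 and the same match. A match describes letters in the window and is no evidence of binding.

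All values are log2 expression values, so a difference of 1 is 2-fold. Crebbp, the check of the labels, read 11.96, 11.99 and 11.90 in wild type and 11.46, 11.42 and 11.32 in knockout. Each array lay on the side of its label. The arrays differed in markers of neighbouring tissue: the mean of 8 choroid plexus genes was 7.86, 7.12 and 7.18 in wild type and 8.83, 7.18 and 9.50 in knockout, and Ttr lay above 10 on wild-type replicate 1 and knockout replicates 1 and 3. Knockout replicate 3 was also set apart by the 10 genes. It was the lowest knockout array for 9 of the 10, where the share over all genes was 39.3%, and the lowest of all 6 arrays for 5, where the share was 22.4%. Results are therefore given with and without it where it matters.

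None of the 10 genes passed at a limma adjusted p under 0.05: 0 rose and 0 fell, against 2.72% of all genes that rose and 3.94% that fell. At an unadjusted p under 0.05 there were 3 of 10 (Gad1, Slc6a11 and Tfap2b), against 20.4% of all genes. The groups did not overlap for 1 member that was higher in knockout (Gad1), against 11.8% of all genes, and for 1 that was lower (Slc6a11), against 13.1%. These counts are small, and the members did not stand out from the background by them. The log2 change, knockout minus wild type, ran from -0.74 to 0.30 with a median of 0.11, and the median over all genes was -0.0028. The median absolute change was 0.12 for the 10 genes and 0.09 over all genes. 6 members were higher in knockout and 4 lower.

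**Figure D1:**
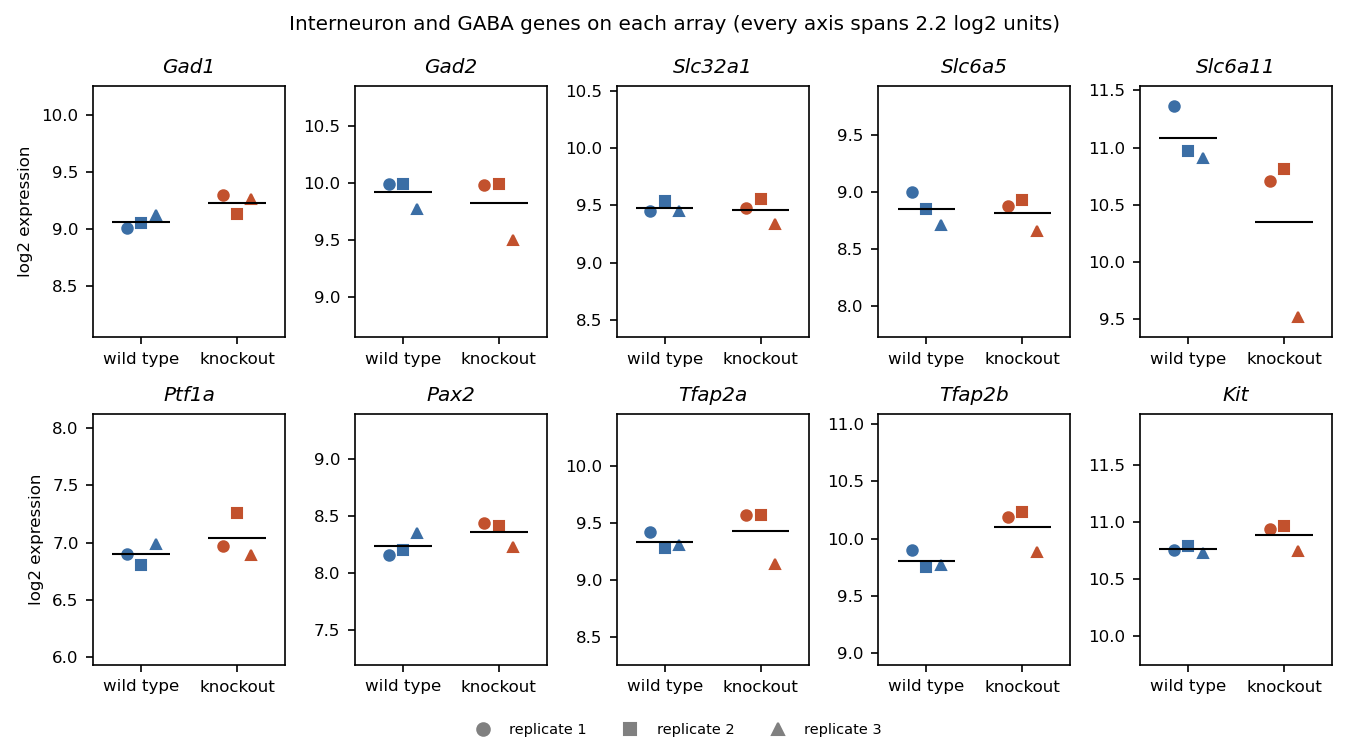
Log2 expression of the 10 genes on each of the 6 arrays, with 3 wild-type arrays in blue and 3 knockout arrays in orange, symbols for the replicate number and a black line at each group mean. Every panel spans the same range of log2 units. Slc6a11 was lower on every knockout array, and knockout replicate 3 (triangle) was the lowest knockout array in every panel except that of Gad1.

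Gad1 encodes the decarboxylase GAD67, which makes most of the GABA in the brain. It read 9.01, 9.05 and 9.13 in wild type and 9.30, 9.13 and 9.26 in knockout. Every knockout array lay above every wild-type array, though knockout replicate 2 exceeded wild-type replicate 3 only in the third decimal. Its mean went from 9.06 ± 0.06 to 9.23 ± 0.09 (SD, n = 3 each), a log2 change of 0.17 (SE 0.06), and it did not pass (limma adjusted p = 0.155). As a ratio this was 1.12, with a 95% confidence interval of 1.02 to 1.24. The change was 0.11 (limma adjusted p = 0.520) with the mean of the choroid plexus genes in the fit. Without the 3 arrays with Ttr above 10 it was 0.0391. That fit holds 1 knockout array, replicate 2, which was the lowest knockout array for Gad1.

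Gad2 encodes GAD65, the decarboxylase associated with synaptic vesicles. It read 9.99, 9.996 and 9.78 in wild type and 9.99, 9.99 and 9.51 in knockout. Knockout replicates 1 and 2 lay at the level of the higher wild-type arrays, and replicate 3 lay below all others. The log2 change was -0.09 (SE 0.12, limma adjusted p = 0.754), and without knockout replicate 3 it was 0.07 (SE 0.07). Both decarboxylase genes thus lacked a call, and the sign for Gad2 rested on 1 array.

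Slc32a1 encodes the vesicular transporter that loads GABA and glycine. It read 9.45, 9.54 and 9.45 in wild type and 9.48, 9.55 and 9.34 in knockout, and the groups overlapped. The ratio of knockout to wild type was 0.984, with a 95% confidence interval of 0.891 to 1.09 (limma adjusted p = 0.897). The interval bounds the difference and does not show equality. A second, dimmer probe set of Slc32a1 read 7.47, 7.29 and 7.38 in wild type and 6.86, 7.21 and 7.16 in knockout. Its groups did not overlap, and its log2 change of -0.31 (SE 0.10) did not pass when each probe set was tested on its own (limma adjusted p = 0.122).

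Slc6a5 encodes GlyT2, the glycine transporter of glycinergic neurons, which in the cerebellum include Golgi cells. It read 8.9995, 8.85 and 8.71 in wild type and 8.87, 8.93 and 8.65 in knockout. The groups overlapped, and the log2 change was -0.04 (SE 0.09, limma adjusted p = 0.887).

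Slc6a11 encodes GAT3, a GABA transporter found mainly on astrocytes, so it reports on uptake by glia more than on interneurons. It read 11.36, 10.97 and 10.91 in wild type and 10.71, 10.81 and 9.52 in knockout. All knockout arrays lay below all wild-type arrays, and knockout replicate 3 lay far below the other two. The mean went from 11.08 ± 0.24 to 10.35 ± 0.72 (SD, n = 3 each), a log2 change of -0.74 (SE 0.28), which did not pass (limma adjusted p = 0.168). As a ratio it was 0.601, with a 95% confidence interval of 0.389 to 0.927. Without knockout replicate 3 the change was -0.32 (SE 0.11, limma adjusted p = 0.154). Without the 3 arrays with Ttr above 10 it was -0.13, in a fit that holds 1 knockout array. That array, replicate 2, was the highest knockout array for Slc6a11. With the replicate number as a block the change over all 6 arrays passed (limma adjusted p = 0.0462), where 4.86% of all genes passed downward. The values gave no sign that the numbers pair the samples.

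The array on which Slc6a11 was lowest was also lowest for oligodendrocyte genes. The mean of 7 such genes was 9.39, 9.34 and 9.32 in wild type and 8.89, 9.26 and 8.63 in knockout, and the change in each of the 7 was negative. 1 of them, the myelin gene Mog, fell (log2 change -0.71, limma adjusted p = 0.0415), and the other 6 did not pass. At an unadjusted p under 0.05 there were 7 of 7, against 20.4% of all genes. The call of Mog was kept when wild-type replicate 3 or knockout replicate 2 was left out and lost with any of the other arrays left out (limma adjusted p from 0.00591 to 0.156 over these fits). It was also lost with a robust prior (limma adjusted p = 0.0630) and with a prior without a trend (limma adjusted p = 0.124). The change of Mog was -0.40 (limma adjusted p = 0.235) with the choroid plexus mean in the fit. It was -0.24 without the 3 arrays with Ttr above 10, in a fit that holds 1 knockout array. That array, replicate 2, was the highest knockout array for Mog. The mean of 12 markers of Bergmann glia and astrocytes, the cells in which Slc6a11 is mainly expressed, was 10.52, 10.53 and 10.47 in wild type and 10.57, 10.61 and 10.497 in knockout, so knockout replicate 3 lay within the wild-type range there. Among the astrocyte genes, the glial filament gene Gfap rose by 0.45 (limma adjusted p = 0.00459), and Gdf10, a Bergmann glia growth factor, rose by 0.20 (limma adjusted p = 0.0414). Slc1a2, the glutamate transporter GLT-1, fell by 0.30 (limma adjusted p = 0.0393), and Slc4a4, a bicarbonate transporter, changed by -0.21 (limma adjusted p = 0.0976). The call of Gfap held whichever array was left out. That of Slc1a2 held only without knockout replicate 1 and that of Gdf10 only if wild-type replicate 2 or the third knockout array was left out. Both of these calls were lost with the choroid plexus mean in the fit (limma adjusted p = 0.140 and 0.0767). The part of the oligodendrocyte and choroid plexus content in the Slc6a11 values was not tested beyond a fit that takes the mean of the choroid plexus genes as a covariate, in which its change was -0.34 (limma adjusted p = 0.643).

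**Figure D2:**
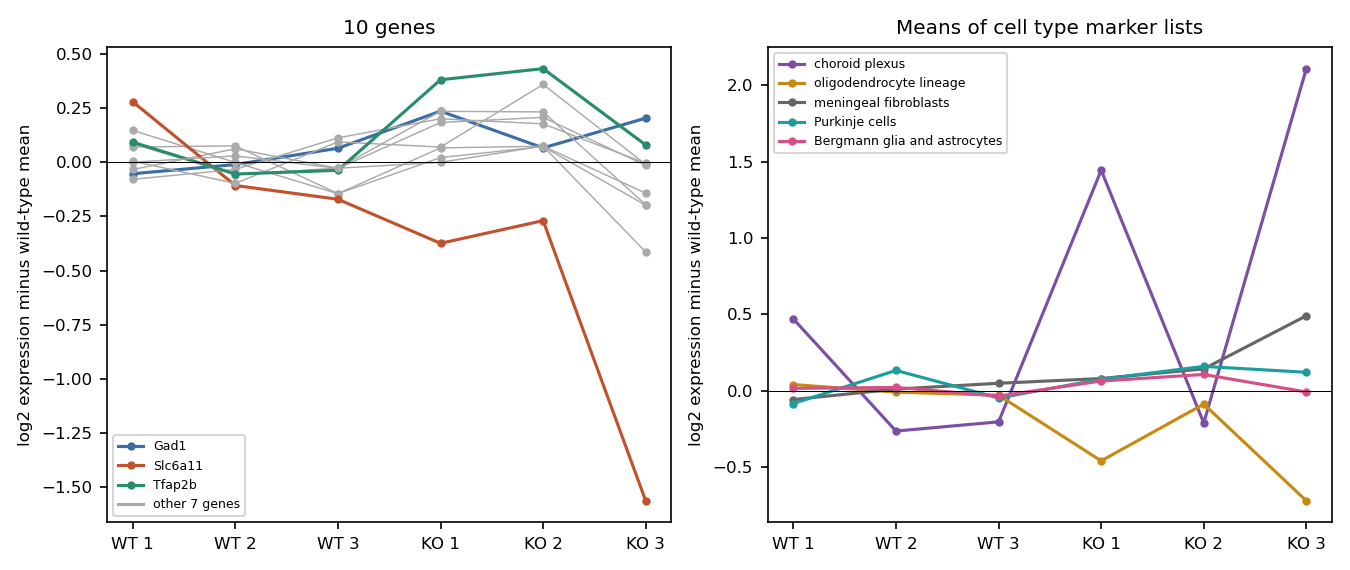
Left, log2 expression of each of the 10 genes minus its own wild-type mean, by array (WT, wild type; KO, knockout); right, the same for the mean of 5 lists of cell type markers. Lines join the values of 1 gene or list and imply no order of arrays. Slc6a11 drops furthest on KO 3, where choroid plexus markers are highest and oligodendrocyte markers lowest, whereas Gad1 does not drop there.

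Ptf1a encodes the transcription factor that commits ventricular zone progenitors to GABAergic fates, and it is mostly silent once neurons have left that zone. It read 6.90, 6.80 and 6.99 in wild type and 6.97, 7.26 and 6.89 in knockout, below the median of all values (7.27) on every array. The groups overlapped, and the log2 change was 0.14 (SE 0.11, limma adjusted p = 0.547). It ran from 0.0297, with knockout replicate 2 dropped, to 0.21, with knockout replicate 3 dropped. A second probe set of Ptf1a read between 5.48 and 5.78, below the 25th percentile of all values (6.02), with a change of 0.0048 (SE 0.11). The table holds no detection calls, so whether Ptf1a was detected is unknown.

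Pax2 encodes the paired-box factor of immature interneurons. It read 8.16, 8.20 and 8.35 in wild type and 8.44, 8.41 and 8.23 in knockout. Knockout replicates 1 and 2 lay above all wild-type arrays and replicate 3 among them. The log2 change was 0.12 (SE 0.08, limma adjusted p = 0.438), and 0.19 (SE 0.08, limma adjusted p = 0.217) without knockout replicate 3.

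Tfap2a and Tfap2b encode AP-2 factors of the GABAergic lineage. Tfap2a read 9.42, 9.28 and 9.31 in wild type and 9.57, 9.57 and 9.14 in knockout, with replicates 1 and 2 above and replicate 3 below every wild-type array. Its log2 change was 0.09 (SE 0.11, limma adjusted p = 0.716), and without knockout replicate 3 it was 0.23 (SE 0.06, limma adjusted p = 0.0610). If knockout replicate 1 or 2 was dropped instead, it was 0.0180 or 0.0192 (limma adjusted p = 0.966 and 0.962).

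Tfap2b had the smallest p of the 10. It read 9.90, 9.75 and 9.77 in wild type and 10.18, 10.24 and 9.88 in knockout. Knockout replicates 1 and 2 stood above the wild-type arrays, and replicate 3 lay just below wild-type replicate 1. The mean went from 9.80 ± 0.08 to 10.10 ± 0.19 (SD, n = 3 each), a log2 change of 0.30 (SE 0.09), which did not pass (limma adjusted p = 0.0762). As a ratio it was 1.23, with a 95% confidence interval of 1.07 to 1.41. Without knockout replicate 3 it passed, with a change of 0.41 (SE 0.06, limma adjusted p = 0.00571). Without the 3 arrays high in Ttr, knockout replicate 3 among them, the change was 0.48. That fit holds 1 knockout array, and its spread is taken from the wild-type arrays. The array, replicate 2, was the highest knockout array for Tfap2b, so the larger change follows from which array remains.

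Kit encodes a receptor tyrosine kinase of molecular layer interneurons, whose ligand, encoded by Kitl, is presented by Purkinje cells. Kit read 10.76, 10.79 and 10.73 in wild type and 10.94, 10.97 and 10.75 in knockout. Knockout replicates 1 and 2 were higher than every wild-type array, and replicate 3 lay within the wild-type range. The log2 change was 0.13 (SE 0.06, limma adjusted p = 0.288), and without knockout replicate 3 it was 0.19 (SE 0.05) and passed (limma adjusted p = 0.0444). Kitl read 9.64, 9.56 and 9.68 in wild type and 9.87, 9.80 and 9.61 in knockout, with a change of 0.13 (SE 0.07, limma adjusted p = 0.341). Of 9 markers of mast cells and melanocytes, the other Kit-expressing cells that a dissection could hold, 0 passed (0 at an unadjusted p under 0.05), and their mean ran from 5.55 to 5.65 in wild type and from 5.63 to 5.78 in knockout.

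Without knockout replicate 3, 2 of the 10 genes passed, Tfap2b and Kit, both upward, and 2.16% of all genes passed upward in that fit. That array was singled out because 9 of the 10 were lowest there among the knockout arrays, so its removal raises their changes by construction, and nothing is read from this count against the background. With any 1 of the other 5 arrays left out, 0 of the 10 rose and 0 fell. Leaving out knockout replicate 3 turned Gad2, Slc32a1 and Slc6a5 from negative to positive, with changes of 0.07, 0.04 and 0.05. With 1 of 3 arrays removed the fit compares 3 with 2 samples.

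**Figure D3:**
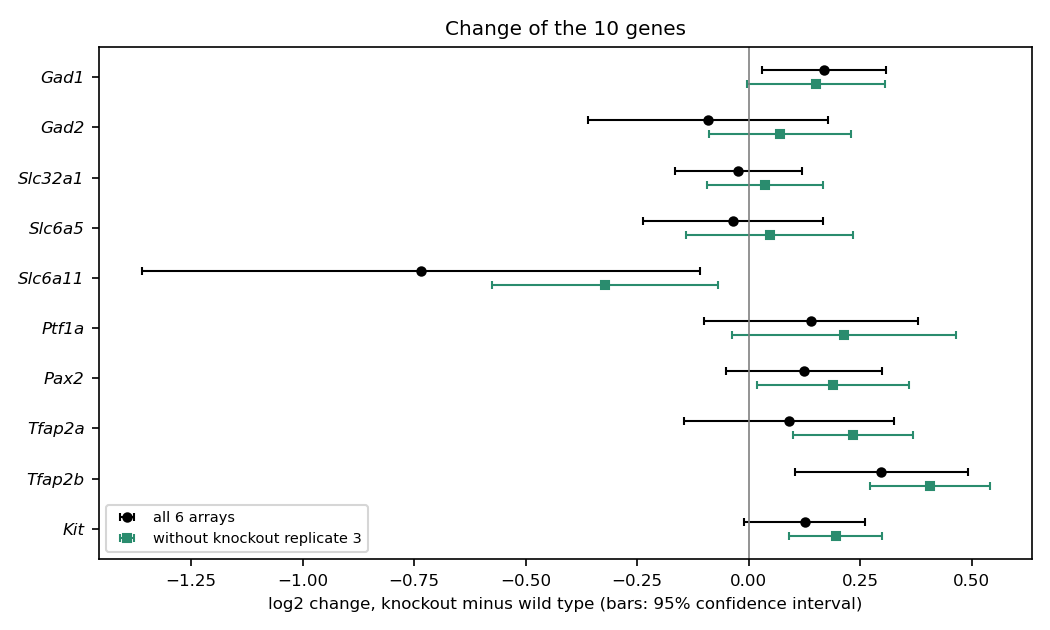
Log2 change of each of the 10 genes, knockout minus wild type, from limma with all 6 arrays (black circles) and without knockout replicate 3 (green squares). Bars are 95% confidence intervals, unadjusted for the number of genes. The interval of Tfap2b runs from 0.10 to 0.49 with all arrays and from 0.27 to 0.54 without that replicate.

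Gene lists around the members were then read from the same fit. Beside the counts of these and the later lists, the shares over all genes are 2.72% that rose and 3.94% that fell. At an unadjusted p under 0.05 the share is 20.4%. Of 11 measured genes of GABA and glycine metabolism and transport, 0 passed (3 at an unadjusted p under 0.05). The median change was 0.08. Amt, a subunit of the glycine cleavage system, changed by 0.17 (limma adjusted p = 0.102), Abat, the transaminase that degrades GABA, by -0.13 (limma adjusted p = 0.131), the glutamine transporter Slc38a3 by 0.13 (limma adjusted p = 0.146) and Aldh5a1, which completes GABA breakdown, by -0.18 (limma adjusted p = 0.262).

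On the receiving side, of 15 measured genes of the inhibitory postsynapse and chloride transport, 3 fell, 0 rose and 12 did not pass, with a median change of -0.14. Glra2, the glycine receptor subunit of immature neurons, read 9.97, 10.04 and 9.85 in wild type and 9.66, 9.50 and 9.55 in knockout. It fell by 0.38 on the log2 scale (SE 0.06, limma adjusted p = 0.00711), and its call held whichever array was left out. Slc12a5, the chloride extruder KCC2 whose rise makes GABA inhibitory, read 9.59, 9.66 and 9.53 in wild type and 9.33, 9.32 and 9.22 in knockout. It fell by 0.30 (SE 0.06, limma adjusted p = 0.0140). The call was lost without wild-type replicate 1 (limma adjusted p = 0.0640) or 2 (limma adjusted p = 0.0556). It was also lost with the choroid plexus mean in the fit (limma adjusted p = 0.0946) and with a prior without a trend (limma adjusted p = 0.0663). Without the 3 arrays with Ttr above 10, which leaves 1 knockout array, the change was -0.27.

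The other call of this list was at low values. Glra3, another glycine receptor subunit, fell by 0.53 (SE 0.14, limma adjusted p = 0.0468), to a knockout mean of 5.84 that lies below the 25th percentile of all values, and the call was kept only without wild-type replicate 3. Glra1, the adult glycine receptor subunit, read 7.62, 6.90 and 6.48 in wild type and 6.14, 6.21 and 6.19 in knockout. Its groups did not overlap, but its change of -0.82 (SE 0.23) did not pass (limma adjusted p = 0.0605), and wild-type replicate 1 was the highest by a wide margin. Without that array the change was -0.51 (limma adjusted p = 0.0939), and without wild-type replicate 3 it was -1.08 and passed (limma adjusted p = 0.0129), as it did with array weights (limma adjusted p = 0.0373). These genes are expressed by many neurons, granule neurons among them for Slc12a5. In the same arrays, 8 of 12 granule neuron genes fell, against 3.94% of all genes, 0 rose and 4 did not pass. The changes of the 12 ran from -0.997 to 0.34, with a median of -0.35, so the list was not lower throughout. At an unadjusted p under 0.05, in either direction, there were 12 of 12. The 4 with the smallest p were Slc17a7, the vesicular glutamate transporter, which fell by 0.81, Rbfox3, the gene of NeuN, by 0.52, Fat2, an atypical cadherin, by 0.79, and the paired-box gene Pax6 by 0.30 (limma adjusted p = 0.000286, 0.00310, 0.00407 and 0.00423). The part of the granule neuron genes in the fall of the receptor genes was not tested.

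Of 10 measured interneuron lineage factors, 1 rose, 1 fell and 8 did not pass, with a median change of 0.09. Lhx1 and Lhx5 encode LIM homeobox factors of Purkinje cells and other cerebellar GABAergic neurons. Lhx1 read 10.22, 10.25 and 10.13 in wild type and 9.78, 9.89 and 9.80 in knockout and fell by 0.38 (SE 0.05, limma adjusted p = 0.00347), whichever array was left out. Lhx5 read 9.09, 8.88 and 8.95 in wild type and 9.42, 9.46 and 9.23 in knockout and rose by 0.40 (SE 0.08, limma adjusted p = 0.0145), a call lost without wild-type replicate 2 (limma adjusted p = 0.0588) or knockout replicate 1 (limma adjusted p = 0.0553). The groups did not overlap for either gene, and the pair moved in opposite directions. The proneural gene Neurog2 changed by 0.15 (limma adjusted p = 0.136) and Cdh1, the epithelial cadherin gene, by 0.35 (limma adjusted p = 0.161).

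Of 17 genes of differentiated cerebellar interneurons, 2 fell, 0 rose and 15 did not pass, with a median change of -0.06. Ptprk, a receptor phosphatase, read 10.54, 10.68 and 10.43 in wild type and 10.05, 10.07 and 9.93 in knockout, and fell by 0.54 (SE 0.07, limma adjusted p = 0.00208), whichever array was left out. Nos1, the neuronal nitric oxide synthase of molecular layer interneurons and granule neurons, fell by 0.35 (SE 0.09, limma adjusted p = 0.0420), a call kept only without knockout replicate 2. The muscarinic receptor gene Chrm2 changed by -0.30 (limma adjusted p = 0.0653) and the serotonin receptor gene Htr2a by 0.19 (limma adjusted p = 0.257).

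The partners of the transcription factors gave few calls. Of 8 AP-2 relatives and cofactors, 0 passed (0 at an unadjusted p under 0.05), and the changes ran from -0.09 to 0.13. The 4 with the smallest p were Cited2, a cofactor that links AP-2 to CREBBP (-0.09, limma adjusted p = 0.464), the AP-2 gene Tfap2c (0.13, limma adjusted p = 0.478), Cited1 (-0.08, limma adjusted p = 0.553) and the AP-2 inhibitor gene Kctd15 (-0.06, limma adjusted p = 0.780). Of 9 partners of Ptf1a and relatives or cofactors of Pax2, 1 rose, 2 fell and 6 did not pass. Eya1, a coactivator that works with PAX factors, rose by 0.28 (SE 0.05, limma adjusted p = 0.0114), a call lost without wild-type replicate 1 (limma adjusted p = 0.0677). Paxip1, a PAX-interacting subunit of a histone methyltransferase complex, fell by 0.21 (SE 0.05, limma adjusted p = 0.0226), and Tcf4, an E protein of the type that pairs with PTF1A, fell by 0.19 (SE 0.05, limma adjusted p = 0.0478). The call of Paxip1 was kept only without knockout replicate 2 and that of Tcf4 only without wild-type replicate 3. Tcf3, another E protein gene, changed by -0.12 (limma adjusted p = 0.363).

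**Figure D4:**
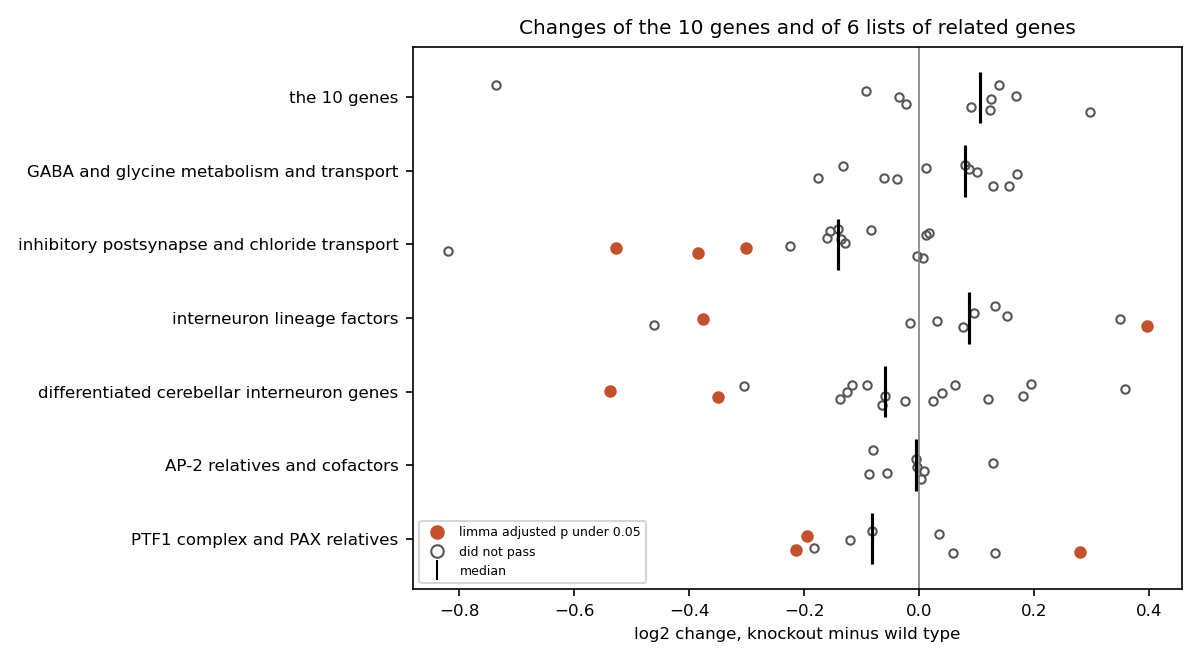
Log2 change, knockout minus wild type, of the 10 genes and of the measured genes of 6 related lists, 1 point a gene, with filled points at a limma adjusted p under 0.05 and a black line at each list's median; vertical scatter within a list has no meaning. None of the 10 genes is filled, and 3 filled points lie on the lower side in the inhibitory postsynapse list, whose median is -0.14.

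Over these 6 lists together, 70 genes were measured, of which 2 rose and 8 fell, against 2.72% and 3.94% of all genes. The lists were chosen with earlier results of these data known, so nothing is read from these counts against the background. Their median change was -0.02. When wild-type replicate 1 was left out, 3 fell and 1 rose, and when wild-type replicate 2 was left out, 4 fell and 1 rose. Leaving out knockout replicate 1 gave 4 that fell, as did leaving out replicate 3 of that group. With the choroid plexus mean in the fit, the calls of Slc12a5, Glra3, Nos1, Eya1, Paxip1 and Tcf4 were lost, and those of Glra2, Lhx1, Lhx5 and Ptprk were kept. With a prior without a trend the calls of these first 6 genes were lost, and that of Lhx5 as well (limma adjusted p = 0.0679). Without the 3 arrays with Ttr above 10, the changes were -0.45 (Glra2), -0.30 (Lhx1), 0.54 (Lhx5) and -0.49 (Ptprk). Over all arrays these were -0.38, -0.38, 0.40 and -0.54. The other 6 were -0.27 (Slc12a5), -0.36 (Glra3), -0.31 (Nos1), 0.21 (Eya1), -0.17 (Paxip1) and -0.20 (Tcf4) without those arrays. That fit holds 2 wild-type arrays and 1 knockout array, so its calls are not given here.

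Purkinje cells also express Gad1, Gad2 and Slc32a1. Of 9 measured Purkinje markers 0 passed (2 at an unadjusted p under 0.05), with a median change of 0.09. Their mean was 10.001, 10.22 and 10.04 in wild type and 10.16, 10.24 and 10.21 in knockout. Calb1, the calcium-binding protein calbindin, changed by 0.16 (limma adjusted p = 0.0577), Rgs8, a regulator of G protein signalling, by 0.32 (limma adjusted p = 0.151), the glutamate transporter Slc1a6 by 0.21 (limma adjusted p = 0.305) and the calmodulin-binding protein Pcp4 by 0.09 (limma adjusted p = 0.328). For Calb1 the groups did not overlap. It passed with a robust prior (limma adjusted p = 0.0487), repeated quantile normalization (limma adjusted p = 0.0313), array weights (limma adjusted p = 0.0410) and the replicate block (limma adjusted p = 0.0320). It also passed with genes of low mean value left out (limma adjusted p = 0.0496), but not with any 1 array left out. Of 9 brainstem neuron markers, which bear on tissue that also holds Slc6a5-expressing neurons, 0 passed (0 at an unadjusted p under 0.05), and their mean ran from 6.38 to 6.50 in wild type and from 6.39 to 6.43 in knockout. Of 8 choroid plexus genes 0 passed (5 at an unadjusted p under 0.05), with a median change of 0.96. The 4 with the smallest p changed by 0.93 (Cldn2), 0.88 (Aqp1), 1.55 (Slc4a5) and 1.35 (Kl). Without knockout replicate 3 they were 0.53, 0.51, 0.86 and 0.70, and none of the 4 passed. Without knockout replicate 2, the knockout array lowest in these genes, they were 1.32, 1.36, 2.43 and 2.11. In that fit all 4 passed (limma adjusted p = 0.00853, 0.00200, 0.000946 and 0.00348). That array was picked for its low values in these genes, so its removal raises their changes by construction. Nothing is read from these calls. Of 8 meningeal fibroblast genes 0 passed (5 at an unadjusted p under 0.05), and their mean was 8.72, 8.78 and 8.82 in wild type and 8.85, 8.92 and 9.26 in knockout, highest on knockout replicate 3.

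The genes most like Gad1 across the 6 arrays, by Pearson correlation among the 12929 other genes at or above the median level, were Ly75 (0.999), an endocytic receptor gene, Uggt2 (0.998), a glucosyltransferase gene of glycoprotein folding, Decr1 (0.997), a fatty acid reductase gene, and Ggcx (0.991), the gamma-carboxylase gene. These are descriptions over 6 arrays that include the group difference, and 155 genes had a correlation over 0.9.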

How the data were processed

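RNA of 6 mouse cerebellum samples was measured on Affymetrix expression arrays, labelled with the GeneChip WT PLUS kit per the labels' protocols. The authors deposited log2 expression values per probe set; the submitters' processing notes name the tools RMA and oligo, with their versions and any filter not given in the sources used here. These values were used as deposited; array medians ran from 7.25 to 7.29, and the number of arrays limits the precision.

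Of 41345 probe sets, GEO's platform annotation gave 1 symbol to 23521, several to 1814 and none to 16010. By Entrez identifier 23328 matched RefSeq. For each of 22180 genes the probe set with the highest mean was tested. The members had 12 probe sets.

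Knockout was set against wild type with limma 3.58.1 (lmFit, eBayes with a trended prior; R 4.3.3), two-sided, with Benjamini-Hochberg adjustment over all genes. "Rose" and "fell" mean an adjusted p under 0.05. SE and confidence intervals are from that fit. The fit was tested on simulated data with independent noise for each gene and array. Those data lacked the tissue differences between arrays seen here, so the p-values were not tested under them. The labels do not say whether each array had its own animal; p-values then reflect the spread among these samples alone, which may be technical. The values gave no sign that the replicate numbers pair the samples. Same-numbered deviations correlated at 0.01, 0.03 and -0.13, and differently numbered ones at -0.14 to 0.12. Whether the samples were paired when collected was not tested.

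The members and lists were chosen with earlier results of these data known. Named genes are the 10 members, Crebbp, Kitl, up to 4 genes of smallest p in each related list and in the Purkinje, astrocyte, granule neuron and choroid plexus lists, and the 4 genes most correlated with Gad1. Genes named outside this rule (Mog, Ttr, Olig2, Slc6a13, Pvalb) were chosen after their values were seen. Alternatives were another prior, scaling, weights, filter, block, threshold, probe set choice, covariate and set of arrays. Python 3.11.15, pandas 2.3.3 and matplotlib 3.10.9 were used for tables and plots.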

Additional observations from a re-analysis of the deposited data

How the results depend on the processing

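Of 160 changes of the 10 genes under 16 alternatives, 142 kept their sign and side of the threshold, 7 passed (5 of Tfap2b, 1 of Kit, 1 of Slc6a11) and 11 changed sign, all of genes near no change. Gad2 was 0.0641 with the choroid plexus covariate, 0.11 without the arrays with Ttr above 10 and 0.0698 without knockout replicate 3; Slc32a1 was 0.0702, 0.0573 and 0.0367 in these, and 0.0076 without wild-type replicate 2; Slc6a5 was 0.0304, 0.15 and 0.0467, and 0.0382 without wild-type replicate 1. With 1 array left out the changes ran from -0.17 to 0.0698 for Gad2, from -0.0720 to 0.0367 for Slc32a1 and from -0.11 to 0.0467 for Slc6a5; Kctd15 ran from -0.12 to 0.00078. Without the arrays with Ttr above 10, Slc4a5 was -0.12 and Kl -0.0386.

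The number of the 10 that rose was 1 (Tfap2b) after repeated quantile normalization, with array weights, with the replicate block, without the arrays with Ttr above 10 and at an adjusted p under 0.10, and 0 to 2 with 1 array left out. The number that fell was 1 (Slc6a11) with the replicate block and 0 otherwise. The block moved the calls of the 6 related lists from 2 to 4 that rose. The values gave no sign that the numbers pair the samples, so this is not taken as separate evidence. In those lists 0 rose and 3 fell with a prior without a trend, 1 rose and 3 fell with the choroid plexus covariate, and 0 fell without the arrays with Ttr above 10. With 1 array left out, 1 to 2 rose and 3 to 8 fell. The cause of these shifts was not tested. The fit without arrays with Ttr above 10 holds 2 wild-type arrays and 1 knockout array. That knockout array, replicate 2, was the highest knockout array for Tfap2b, so nothing is read from the call of Tfap2b in that fit.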

Other observations

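Values of genes named after they were seen are given here with no test of an explanation. Olig2, a factor of oligodendrocyte precursors that also acts in cerebellar ventricular zone progenitors, read 10.20, 9.95 and 10.07 in wild type and 9.72, 10.004 and 9.12 in knockout, lowest on the array where Slc6a11 and Gad2 were lowest (log2 change -0.46, limma adjusted p = 0.173). Slc6a13, the GABA transporter GAT2 of meninges and choroid plexus, went the other way on that array, with 9.38, 9.36 and 9.27 in wild type and 9.32, 9.27 and 9.72 in knockout (log2 change 0.10, limma adjusted p = 0.668). Pvalb, the calcium-binding protein parvalbumin of Purkinje cells and molecular layer interneurons, read 8.09, 8.46 and 8.41 in wild type and 8.24, 9.02 and 8.77 in knockout (log2 change 0.36, limma adjusted p = 0.281).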
